A study of Mus musculus with 24 samples.

Results

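The 30 genes described here are neuronal genes of the mouse, listed by name as sensory neuron and axon genes and followed over 24 arrays of embryonic jaw tissue. They were grouped by role as 4 genes of sensory neuron identity, 5 neuronal intermediate filaments, 9 genes of microtubules and axon growth, 6 of the synapse and its vesicles, 3 neuronal RNA-binding proteins and 3 other neuronal genes. All 30 were found among the 18194 genes that have a probe set naming only them, and each was read from 1 probe set, that with the highest mean of all arrays. A filter on dim probe sets, which asked for a value above the 40th percentile of the array on at least 3 arrays, kept 13850 genes and 29 of the 30 members. Nefh lay above that percentile on 2 arrays and was left out. Tlx3 passed on 4 arrays, Pou4f1 on 5, Scn9a on 6 and Avil on 9, mostly those where they were high, so main counts over the 29 tested members are given with the count over all 30 from a fit without the filter.

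Sensory neurons of the face have their cell bodies in the cranial ganglia, of which the trigeminal ganglion is the largest, and send axons through the maxillary and mandibular nerves into the jaws. RNA of these neurons sits mainly in the cell body, although growing axons also carry some. Their precursors come from the neural crest and from cranial placodes. Most of the 30 genes are shared by many neuron types, while the identity genes are more restricted to sensory neurons of the ganglia.

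Tissue was taken at embryonic day 13.5 from a cross of Wnt1-Cre;Tgfbr2 fl/+ with Tgfbr2 fl/fl mice, on a background labelled C57B6. Mutants, labelled Tgfbr2 knockout, were picked by their cleft palate and calvarial defect, and controls were littermates whose own Cre status and Tgfbr2 alleles are not given. The Wnt1-Cre transgene acts in the neural crest, so that loss of the TGF-beta type II receptor is limited to cells of that origin, and muscle, epithelium, endothelium and placode-derived neurons keep the gene. Both jaws, mandible (lower) and maxilla (upper), were sampled at a distal and at a proximal end, giving 8 groups of 3 arrays of control distal mandible, control proximal mandible, control distal maxilla, control proximal maxilla and the same 4 regions of mutants. The labels do not say whether embryos were pooled or whether replicates are separate animals. A p-value here therefore reflects only how far these samples vary, and that variation may be technical. Below, a set means the 4 arrays of 1 genotype that carry the same replicate number.

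Values are deposited RMA values on a log2 scale, so that a difference of 1 is a 2-fold change, and a comparison called a gene where its p, adjusted over 13850 genes by the Benjamini-Hochberg method in a limma fit to all 24 arrays, was under 0.05. Tgfbr2 itself read 0.31 ± 0.0543 (SE) higher in mutant arrays on average (adjusted p = 0.000296), and since the position of its probe set against the deleted exons is not stated, it does not check the labels. Sets differed in sex-linked transcripts. Mean Xist and mean Y-linked values were 6.31 and 9.97 in control set 1 and 6.5 and 10.01 in mutant set 1. They were 13.68 and 3.82 in control set 2 and 13.65 and 3.88 in control set 3. Both were high in mutant set 2 (13.52 and 8.81) and mutant set 3 (13.19 and 9.2), so each held transcripts of both sexes. The difference between 3' and 5' Gapdh control probe sets, a sign of RNA quality, was -0.07 to 0.16 in control arrays and 0.04 to 0.77 in mutant arrays. The maxilla arrays of mutant set 1 stood apart from all other arrays in Fezf1 and several other genes, and results on mutant maxilla are given with and without them. Shares of all genes called are those of the fit to all 24 arrays, with or without the filter. Counts from fits to fewer arrays or with a block have no such share beside them. Fewer neurons in a sample and less RNA per neuron cannot be told apart in bulk tissue.

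In control maxilla the members were far higher at the proximal end than at the distal end. Their mean over the 30 genes was log2 9.58, 9.35 and 9.63 on the 3 proximal arrays, 9.52 ± 0.150 (SD, n = 3), and 7.62 ± 0.0375 on the distal arrays. In the limma fit 23 of the 29 tested members were lower distally, where 6.06% of all genes were called and 2.69% were called lower. The 27 members whose distal arrays all lay below the proximal arrays compare with 15.7% of all genes. Without the filter 23 of all 30 were lower, beside 4.44% of 18194 genes, and the median difference over the 30 was -1.61 where that of all genes was 0.017. The same contrast called 8 members without control set 1, 11 without control set 2 and 8 without control set 3, and 26 in a fit to control arrays alone.

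**Figure D1:**
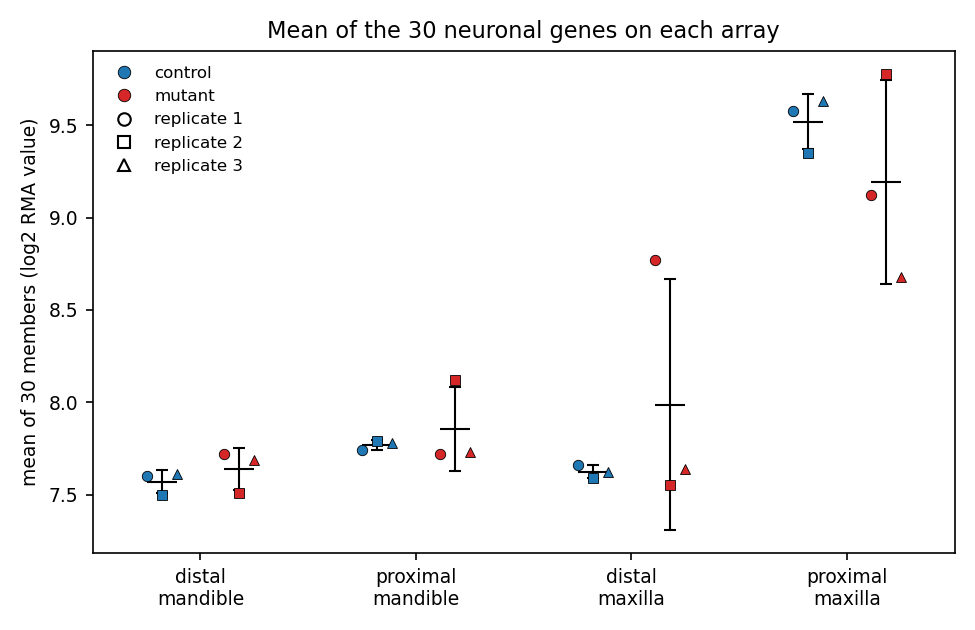
Mean of the 30 members on each of the 24 arrays (y axis, log2 RMA value) by region (x axis). Blue symbols are control and red symbols mutant arrays, symbol shape gives the replicate number, and horizontal and vertical bars give the group mean and SD (n = 3). The control proximal maxilla arrays lie between 9.35 and 9.63, and the control groups of the other regions average 7.57 to 7.77.

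The 4 identity genes were all called. Pou4f1, a transcription factor of sensory neurons, read 8.10, 7.31 and 8.59 on the control proximal maxilla arrays and 5.01, 4.73 and 4.71 on the distal arrays. It was lower distally (log2 difference -3.18 ± 0.516, SE, adjusted p = 0.000705), with no overlap, and no fold is given because the distal values lay under the 40th percentile of the array (6.26 to 6.34). Scn9a, which encodes a voltage-gated sodium channel of pain-sensing, sympathetic and olfactory neurons, read 7.54, 7.59 and 7.91 proximally and 4.26, 4.13 and 3.97 distally. Its difference was -3.56 ± 0.593 (adjusted p = 0.000886), and the distal values lay with those of both mandible ends, where control arrays read 3.91 to 4.16. Avil, an actin-binding protein of peripheral sensory neurons, read 7.79, 7.57 and 8.01 proximally and 5.95, 6.11 and 6.07 distally (-1.74 ± 0.284, adjusted p = 0.000739). Tlx3, a homeobox gene of sensory and hindbrain neurons, had the smallest difference of the 4, with 6.79, 6.64 and 6.63 against 6.06, 5.94 and 5.99 (-0.69 ± 0.184, adjusted p = 0.0285). For each of the 4 genes the 9 control arrays of the other regions lay below the 3 proximal maxilla arrays, so that among control regions the markers of sensory neurons were high in proximal maxilla and not in the others, where most of their values lay under the 40th percentile of the array.

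Among the intermediate filaments, the cables that support axon calibre, Prph stood out. Prph encodes peripherin, the filament of peripheral neurons, and read 11.17, 11.06 and 11.46 in control proximal maxilla and 6.24, 6.56 and 6.75 distally. The distal end was 26.3-fold lower (-4.72 ± 0.543, adjusted p = 3.39e-05), with no overlap between the groups. Ina, the alpha-internexin of young neurons, read 10.45, 9.93 and 9.85 proximally and 6.88, 6.65 and 6.61 distally (-3.36 ± 0.715, adjusted p = 0.00659). Nefm and Nefl, the medium and light neurofilament chains, were also called lower (-2.74 ± 0.502 and -1.68 ± 0.382). Nefh, the heavy chain that appears late in axon maturation, read 5.88, 6.24 and 6.51 against 5.35, 5.45 and 5.49, and without the filter its adjusted p was 0.0135.

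Genes of microtubules and axon growth gave 7 lower members of 9. Stmn3, a microtubule-destabilising stathmin of neurons, had the largest difference of all members: 11.71, 11.38 and 11.61 proximally against 6.81, 6.74 and 6.71 distally, 28.1-fold (-4.81 ± 0.740, adjusted p = 0.000456). Tubb3, the neuronal beta-tubulin, differed by -2.40 ± 0.528 and Stmn4 by -2.36 ± 0.336, and the tau gene Mapt, Dcx, the kinesin Kif5c and the adhesion molecule L1cam by -1.72, -1.54, -1.22 and -0.89. The remaining 2 of the role did not pass. Stmn2 read 11.31, 10.70 and 11.27 against 9.97, 8.54 and 10.13 (adjusted p = 0.113), and the growth cone gene Gap43 read 11.06, 10.98 and 11.10 against 10.89, 10.45 and 10.72 (adjusted p = 0.425).

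Of the 6 genes of the synapse and its vesicles 4 were lower distally. Sncg, the gamma-synuclein of peripheral neurons, read 10.49, 10.12 and 10.74 proximally and 6.25, 6.25 and 5.90 distally (-4.32 ± 0.469, adjusted p = 2.2e-05), where all 3 distal values lay under the 40th percentile. Snap25, a component of the vesicle fusion machinery, differed by -2.32 ± 0.447, the complexin Cplx1 by -0.80 ± 0.232 and the calcium sensor Syt1 by -0.75 ± 0.176. Syp, the vesicle protein synaptophysin, and Sncb, the beta-synuclein, were not called, with differences of -0.04 and -0.06. The dimmer of the 2 Syp probe sets, above the 40th percentile on 5 arrays, read 1.01 higher proximally, so the 2 probe sets of this gene disagreed. Over the RNA-binding proteins, which regulate splicing and mRNA stability in neurons, Elavl4 was called (-2.74 ± 0.577) and Elavl3 and Celf3 were not (-1.44, adjusted p = 0.108, and -0.40). The remaining genes, Rtn1, Uchl1 and Gng3, were all lower distally (-2.02, -1.49 and -1.14).

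Promoters are shown for Prph, Sncg and Stmn3, which differed most between the ends of control maxilla. They are the 250 bases before the transcript start in RefSeq (build GRCm38.p6), read 5′ to 3′ along the gene, with capitals for a TATA box (TATAAA) or a GC box (GGGCGG on either strand, as CCGCCC on the reverse strand).
Prph promoter, chr15:99054924-99055173, plus strand: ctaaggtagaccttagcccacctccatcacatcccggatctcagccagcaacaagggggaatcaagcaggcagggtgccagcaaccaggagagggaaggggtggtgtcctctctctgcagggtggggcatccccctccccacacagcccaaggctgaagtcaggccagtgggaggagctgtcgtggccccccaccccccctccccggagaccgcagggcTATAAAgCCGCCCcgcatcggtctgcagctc
Sncg promoter, chr14:34374670-34374919, minus strand: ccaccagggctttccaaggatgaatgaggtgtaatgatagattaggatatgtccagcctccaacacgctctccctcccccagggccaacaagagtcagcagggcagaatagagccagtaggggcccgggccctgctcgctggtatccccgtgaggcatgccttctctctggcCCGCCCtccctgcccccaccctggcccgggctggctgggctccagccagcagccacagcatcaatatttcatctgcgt
Stmn3 promoter, chr2:181314501-181314750, minus strand: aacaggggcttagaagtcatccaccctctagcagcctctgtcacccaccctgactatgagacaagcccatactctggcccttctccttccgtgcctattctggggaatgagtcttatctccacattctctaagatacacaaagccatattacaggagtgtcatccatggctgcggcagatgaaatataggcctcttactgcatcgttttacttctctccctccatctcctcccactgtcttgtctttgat
The Prph promoter held a TATA box 31 to 26 bases before the start and a reverse-strand GC box 24 to 19 bases before it, the Sncg promoter a reverse-strand GC box 78 to 73 bases before the start, and the Stmn3 promoter neither. Promoters were listed for 22 of the 30 members, 36 in all. A TATA box was found in 7 of these 36, from 5 members, and in 12.4% of 32851 promoters of all genes. A GC box was found in 18, from 14 members, and in 32.7% of all. The cyclic AMP response element TGACGTCA was found in 4 of the 36 and in 1.55% of all, both strands being searched each time. A match is a stretch of letters and was not tested as a site.

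Other probe sets of the same genes were read in the same contrast. Of 34 further probe sets for members, 20 lay above the 40th percentile on at least 3 arrays, and 19 of these read higher in proximal than in distal control maxilla. They included additional probe sets of Stmn3 (4.48 higher), Pou4f1 (3.01 higher) and Scn9a (3.35 higher), which passed on 8, 3 and 5 arrays. The exception among these 20 was a probe set of Prph that lay 0.04 lower proximally and whose arrays overlapped, while the Prph probe set used here was the brightest of 4. A dim probe set passes only through arrays where it is high, so the direction of such probe sets was partly set by the filter. Among those that did not pass, probe sets of Syt1 (-0.08 and -0.12) and Prph (-0.08) read lower proximally and the rest higher.

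Lists of related genes were read beside the members in the same comparison. Of 8 tested transcription factors of sensory neurons 2 were lower distally, of 7 neurotrophin and GDNF-family receptors 2, of 8 sensory channels and peptides 2, and of 25 further pan-neuronal genes 11. Genes chosen after their values were seen show which these were. Prrxl1, a homeobox gene of nociceptive sensory neurons, read 8.37, 8.30 and 8.61 in control proximal maxilla and 5.93, 5.81 and 5.88 distally (-2.56 ± 0.413, adjusted p = 0.000679). P2rx3, the ATP-gated channel of sensory neurons, read 8.38, 7.73 and 8.57 against 6.46, 6.66 and 6.46 (-1.70 ± 0.356), and the receptor gene Ret differed by -2.99 ± 0.406. Th, which makes catecholamines and is a marker of the autonomic list, was also lower distally (-2.30 ± 0.315). It read 7.69, 7.85 and 7.91 proximally and 5.42, 5.64 and 5.51 distally. Isl2, a gene of motor and sensory neurons, was lower distally too (-0.80 ± 0.166). Counts of called genes in the autonomic (6 tested), neurotrophic ligand (5 tested) and axon guidance (16 tested) lists are not given here. In control maxilla the mean of the autonomic list was 7.22 to 7.26 proximally and 6.9 to 6.93 distally. That of the ligand list went the other way, at 7.45 to 7.72 and 7.78 to 7.87. That of the axon guidance list overlapped between the ends. Averaged over both jaws and genotypes 21 of 29 members were lower distally (30.5% of all genes called, 15.4% lower), and averaged over ends and genotypes 22 were lower in mandible (18.4%, 10.7% lower). Without the filter these counts were 22 and 23 of 30.

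Some markers of glia and cartilage were also lower distally, and those of epithelium mostly ran the other way. Fabp7, a gene of glial precursors, was 2.10 ± 0.273 lower distally, and 2 of 10 tested Schwann cell and glia genes were lower in all. Cartilage markers were lower distally for 5 of 6, among them Matn1 (-5.12 ± 1.16), Col9a1 (-3.82 ± 0.656) and Col2a1 (-3.24 ± 0.777), and epithelial markers were higher distally for 6 of 8. The summed level of the 6 cartilage genes, as their mean, was 10.23 to 11.38 on the proximal and 7.50 to 7.99 on the distal arrays, and that of the 8 epithelial genes 9.84 to 10.08 and 11.05 to 11.28. Among 6 tested olfactory, 4 brain, 3 eye, 10 skeletal muscle and 6 endothelial genes 0 were called in limma, and 0 had an unadjusted p under 0.05. The mean of the olfactory list was 6.41 to 6.45 on the proximal and 6.44 to 6.54 on the distal arrays. In control proximal mandible the cartilage list averaged 10.59 to 11.66. The part of glia, cartilage and epithelium in the result was not tested.

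The proximal mandible was not high in these genes. Between the proximal ends of control jaws 17 of 29 tested members were lower in mandible (2.61% of all genes called, 1.65% lower), 27 had mandible arrays all below the maxilla arrays (12.9% of all genes), and without the filter 17 of 30 were lower (2.01% of all genes). The count was 3 without control set 1, 6 without control set 2 and 2 without control set 3, and 27 in a fit to control arrays alone. The 4 largest differences were those of Prph (-4.24 ± 0.543), Sncg (-4.16 ± 0.469), Stmn3 (-4.08 ± 0.740) and Scn9a (-3.61 ± 0.593), followed by Pou4f1 (-3.27 ± 0.516) and Ina (-3.25 ± 0.715). Control proximal mandible read 7.08, 6.95 and 6.93 for Prph, 6.51, 5.71 and 6.65 for Sncg and 7.07, 8.04 and 7.33 for Stmn3. All of them lay under the proximal maxilla. Prph and Stmn3 lay above the control distal maxilla arrays (6.24 to 6.75 and 6.71 to 6.81), and Sncg overlapped them (5.90 to 6.25). Among the listed companions the 4 largest differences were those of Prrxl1 (-2.71 ± 0.413), Ret (-2.60 ± 0.406), Th (-2.35 ± 0.315) and Rbfox3, a nuclear protein of mature neurons (-2.11 ± 0.341).

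The difference between the jaws' end effects was tested as well. In controls the distal minus proximal difference of the mandible exceeded that of the maxilla for 12 of 29 members (2.73% of all genes called, 1.13% in this direction), and for 9 of 30 without the filter (1.90% called). The largest were Stmn3 (3.97 ± 1.05, adjusted p = 0.0472), Sncg (3.82 ± 0.663, adjusted p = 0.00435) and Prph (3.75 ± 0.767, adjusted p = 0.0118). The count of calls fell to 0, 1 and 0 without control set 1, 2 and 3, and it was 25 in a fit to control arrays alone and 20 without the 2 apart arrays. The size of the difference moved little, since the members' mean in control maxilla differed by -1.96 to -1.83 between the ends when 1 control set was left out. Averaged over genotypes 16 members were called (6.23% of all genes, 2.79% in this direction), with 6, 10 and 7 without control set 1, 2 and 3.

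**Figure D2:**
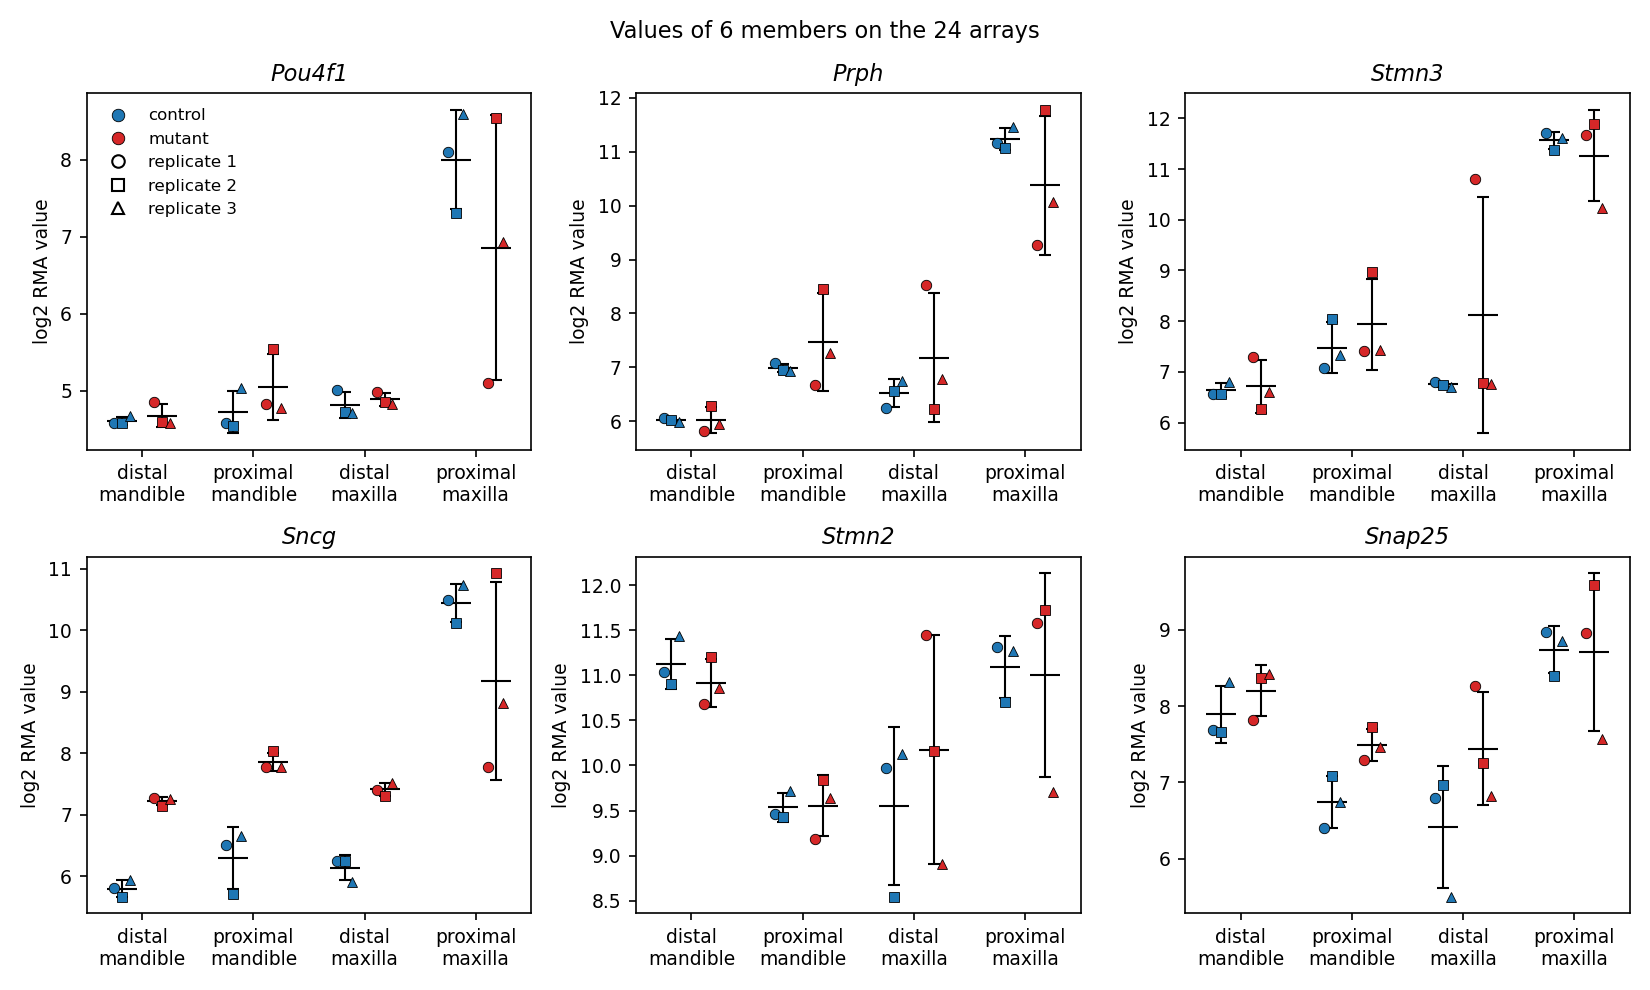
Values of Pou4f1, Prph, Stmn3, Sncg, Stmn2 and Snap25 on the 24 arrays (y axes, log2 RMA value, each with its own scale) by region. Blue is control, red is mutant, shape gives the replicate, and bars give group mean and SD (n = 3). The first 4 genes are high in control proximal maxilla only among control regions, whereas Stmn2 and Snap25 are also high in distal mandible.

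Within the mandible members went both ways. Nefl was the only member called in control mandible, with the filter (1 of 29) and without it (1 of 30), where 13.3% of all genes were called and 7.08% were lower distally. It read 9.66, 8.84 and 9.34 distally and 11.81, 11.03 and 11.56 proximally (-2.18 ± 0.382, adjusted p = 0.000579), and in the fit to control arrays alone Dcx (-0.98), Stmn4 (-0.99), Nefm (-1.08), Prph (-0.97), Stmn3 (-0.84), Uchl1 (-0.59) and Gng3 (-0.52) were also lower distally. Stmn2, a stathmin of growing axons, ran the other way. It read 11.04, 10.90 and 11.44 in control distal mandible and 9.46, 9.43 and 9.72 proximally, with no overlap (1.60 ± 0.542, adjusted p = 0.0596 over all 24 arrays, and 0.00877 in the fit to controls).

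Snap25 ran with Stmn2, at 7.69, 7.66 and 8.32 distally and 6.40, 7.09 and 6.74 proximally (1.15 ± 0.447, adjusted p = 0.104, and 0.0381 in the fit to controls), as did L1cam (0.41) and Syt1 (0.21) in that fit. Stmn2 in distal mandible thus reached its level in proximal maxilla (10.70 to 11.31), while Pou4f1, Scn9a and Prph were low there (4.58 to 4.67, 3.99 to 4.14 and 5.98 to 6.06). In all, the 29 members gave 9 with distal arrays below, 5 above and 15 overlapping in control mandible, beside 20.1%, 21.4% and, for either direction, 41.6% of all genes without overlap. The 12 members called in the fit to controls were 8 lower and 4 higher. The share of all genes called in that fit is not given here, so 12 cannot be set against it. With the set as a fixed block Nefl, Stmn2, Stmn4 and Dcx were called, and without mutant set 1, 2 or 3 the count was 5, 4 or 3.

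Muscle genes moved with this mandible gradient. Of 10 skeletal muscle genes 9 were lower in distal control mandible, the largest being Myh3 (-4.30 ± 0.506), Acta1 (-4.18 ± 0.418), Tnni1 (-3.96 ± 0.412) and Myog (-2.76 ± 0.328), and the mean of the list was 7.99 to 9.16 distally and 10.78 to 11.38 proximally. The receptor gene Ret ran with Stmn2, at 8.52, 8.35 and 8.29 distally and 5.51, 6.63 and 6.35 proximally (2.22 ± 0.406, adjusted p = 0.000882), as did the peptide gene Tac1 (1.26 ± 0.311) and the ligand gene Gdnf (0.60 ± 0.137). Epithelial markers were higher distally for 4 of 8. The part of muscle and epithelium in the members' differences was not tested.

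Between the distal ends of the control jaws few members differed. Nefl was lower in mandible (-1.48 ± 0.382, adjusted p = 0.0164) and Snap25 higher (1.47 ± 0.447, adjusted p = 0.0442), where 9.21% of all genes were called, 3.51% higher and 5.70% lower. Snap25 read 6.80, 6.96 and 5.50 in distal maxilla, so its lowest array lay well under the rest. Without the filter 1 of 30 members was called. Arrays of 16 members did not overlap, beside 35.3% of all genes. The count ranged from 0 to 4 when sets were left out, with 1 without control set 1 and 0 without control set 2 or 3, and was 7 in a fit to control arrays alone. There Stmn2 (1.58) was higher in mandible, and Gng3 (-0.68), Prph (-0.49), Dcx (-0.41) and Syt1 (-0.22) were lower. The muscle genes Myh3 (-4.14 ± 0.506), Acta1 (-3.97 ± 0.418) and Tnni1 (-3.84 ± 0.412) and the cartilage gene Matn1 (3.97 ± 1.16) had the largest differences among the companion lists in that comparison.

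In mutants the proximal maxilla was again the region with the highest mean, with a wider spread. The mean of the 30 members was 9.12, 9.78 and 8.68 on the mutant proximal maxilla arrays (9.19 ± 0.554, SD, n = 3) and 8.77, 7.55 and 7.64 on the distal ones (7.99 ± 0.680). The median SD of the members within a group was 0.897 and 0.699 in these groups and 0.116 to 0.222 in the other 6. In the limma fit 8 of 29 members were lower distally in mutant maxilla (5.15% of all genes called, 2.66% lower), and without the filter 9 of 30 (3.72% called). The 8 were Prph (-3.20 ± 0.543), Stmn3 (-3.15 ± 0.740), Scn9a (-2.35 ± 0.593), Pou4f1 (-1.96 ± 0.516), Sncg (-1.76 ± 0.469), Stmn4 (-1.71 ± 0.336), Uchl1 (-1.34 ± 0.251) and Mapt (-1.23 ± 0.308).

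Array by array, Prph read 9.27, 11.78 and 10.07 on the mutant proximal maxilla arrays and 8.52, 6.22 and 6.79 on the distal ones. Stmn3 read 11.68, 11.89 and 10.23 against 10.80, 6.78 and 6.76, and Scn9a 7.33, 8.56 and 6.20 against 6.82, 4.29 and 3.94. The distal array of replicate 1 was the high one each time, and it made the groups overlap for Stmn3 and Scn9a. Sncg read 7.77, 10.93 and 8.81 against 7.40, 7.31 and 7.52, and Stmn4 9.09, 9.91 and 8.52 against 8.38, 6.79 and 7.22. With Pou4f1 and Prph these 2 were the 4 members without overlap, beside 5.75% of all genes below. Tlx3 (5.84, 6.98 and 6.20 against 5.83, 5.64 and 6.11) and Avil (6.08, 7.96 and 7.07 against at most 6.26) were not called and overlapped. Among the companion lists Fabp7 (-1.96 ± 0.273), Acta1 (-1.61 ± 0.418), Ret (-1.60 ± 0.406) and the receptor gene Ntrk3 (-1.51 ± 0.282) differed most.

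Single sets decided that count. It was 21 without mutant set 1, 1 without mutant set 2, and 3, 4 and 3 without control set 1, 2 and 3. Without the 2 maxilla arrays of mutant set 1, a choice made after the data were seen, 21 members were lower distally, with differences of -2.89 for Pou4f1, -3.27 for Scn9a, -4.42 for Prph and -4.29 for Stmn3. Pou4f1 read 5.10, 8.54 and 6.93 on the 3 mutant proximal arrays and 4.99, 4.86 and 4.83 on the distal ones, so that the first proximal array lay at the distal level. With the set as a fixed block 15 members were called. When only these 2 groups were fitted in limma 0 were called.

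**Figure D3:**
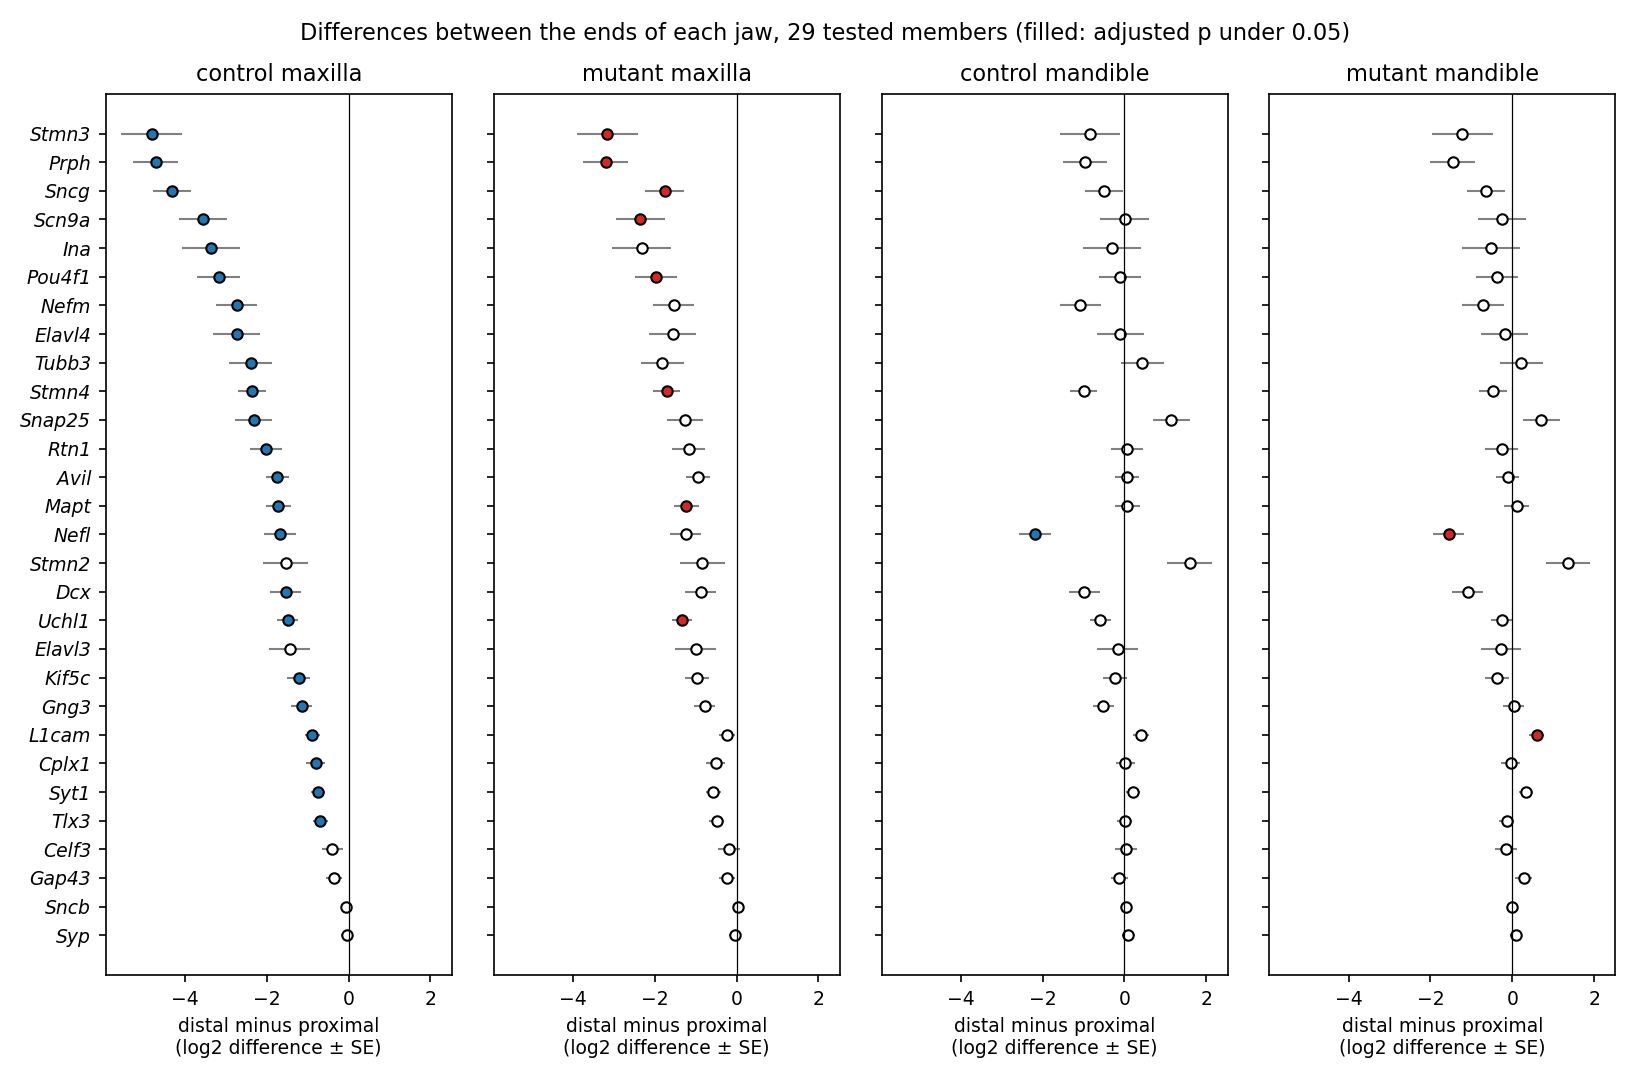
Distal minus proximal log2 differences with their SE (x axes) for the 29 tested members (rows, ordered by the control maxilla) in each jaw of each genotype. Filled symbols have an adjusted p under 0.05 in the fit to all 24 arrays. The differences are negative for all 29 members in control maxilla and for 28 in mutant maxilla, while the mandible panels hold both signs around 0.

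In mutant mandible Nefl (10.27, 9.56 and 10.13 distally against 11.47, 11.61 and 11.53, -1.55 ± 0.382, adjusted p = 0.00767) was lower and L1cam (8.65, 8.06 and 8.33 against 7.70, 7.74 and 7.82, 0.60 ± 0.189, adjusted p = 0.0373) higher at the distal end, where 15.9% of all genes were called. Stmn2 (1.36 ± 0.542) and Snap25 (0.71 ± 0.447) had the sign they had in controls and no overlap, without passing the threshold. Array 2 of mutant proximal mandible was the highest of its group for Prph and for identity genes. Prph read 6.67, 8.46 and 7.27, Scn9a 4.05, 5.52 and 3.74, and Pou4f1 4.83, 5.54 and 4.78. The count was 1 without any 1 control set and without mutant set 3, and 4 with the set as a fixed block (Nefl, Stmn2, Dcx and L1cam).

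Between proximal ends of mutant jaws 15 of 29 members were lower in mandible (5.69% of all genes called, 2.96% lower), and 14 of 30 without the filter (4.12%). Stmn3 (-3.33 ± 0.740), Ina (-3.22 ± 0.715), Scn9a (-2.93 ± 0.593), Prph (-2.91 ± 0.543), Tubb3 (-2.43 ± 0.528) and Elavl4 (-2.39 ± 0.577) differed most, each without overlap. The count was 21 without the 2 apart arrays, and 3 (Ina, Stmn3 and Mapt) when only these 2 groups were fitted. Among the companion lists Fabp7 (-1.93 ± 0.273), the secretogranin Scg3 (-1.73 ± 0.294), the kinesin Kif5a (-1.69 ± 0.262) and the adhesion molecule Nrcam (-1.54 ± 0.339) differed most. Between distal ends 0 were called in limma (4.92% of all genes), with 3 at an unadjusted p under 0.05, 1 called with the set as a fixed block and 1 called without mutant set 2. The jaws' end effects differed for 0 members (1.32% of all genes), with 12 at an unadjusted p under 0.05, 5 called without mutant set 1 and 14 called without the 2 apart arrays.

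The 3 mutant arrays of the proximal maxilla did not move together. Replicate 2 lay above the range of the 3 control arrays for 22 of the 30 members, below it for 4 and within it for 4, with a median of 0.30 above the control mean. Replicate 3 lay below the control range for 26 members, above it for 1 and within it for 3, with a median of -0.76. Replicate 1 was above for 9, below for 15 and within for 6, and its values ran from -3.04 to 1.48 around the control mean. The share of all genes outside the control range was not counted for these arrays, so the counts do not set the members apart from other genes. The low values of replicate 3 covered identity genes (Pou4f1 6.93, Avil 7.07, Scn9a 6.20) and general ones (Dcx 8.25, Elavl4 8.88, Stmn2 9.70) alike. Replicate 2 had Pou4f1 at 8.54, Prph at 11.78 and Scn9a at 8.56. The difference between 3' and 5' Gapdh probe sets was 0.33, 0.10 and 0.62 on mutant replicates 1, 2 and 3, and 0.01, 0.09 and 0.02 on the control arrays. Its part in the members' values was not tested.

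**Figure D4:**
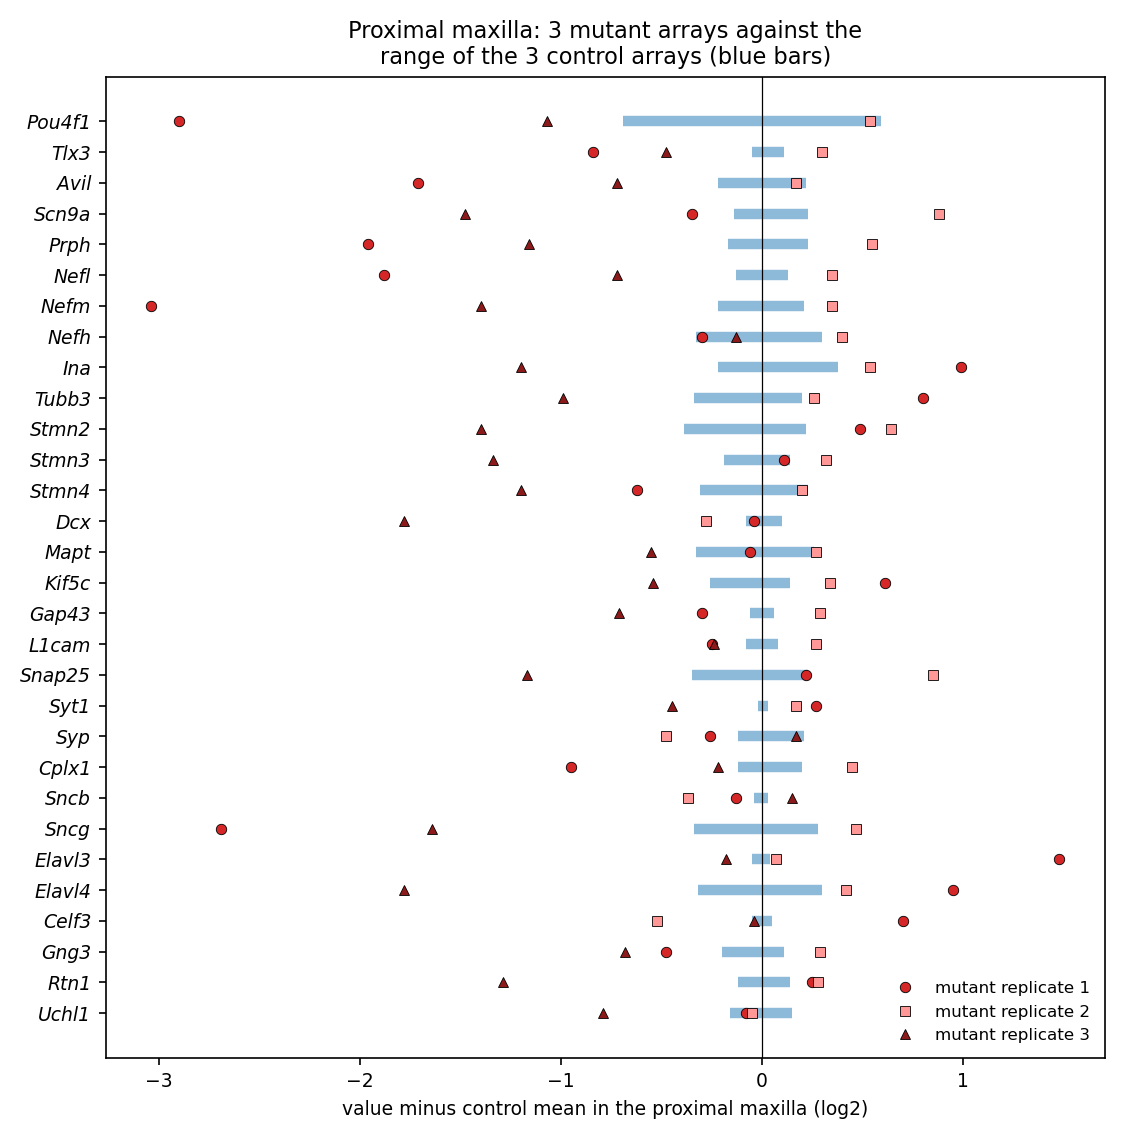
Values of the 30 members (rows, by role) on the 3 mutant proximal maxilla arrays, minus the mean of the 3 control arrays (x axis, log2). Blue bars span the control arrays. Replicate 2 lies above the bar for 22 members and replicate 3 below it for 26, while replicate 1 ranges from -3.04 to 1.48.

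The replicate 1 arrays of mutant maxilla, distal and proximal, differed from the other maxilla arrays in both directions, gene by gene. Tubb3 read 10.56 on the distal and 11.28 on the proximal array, Ina 10.51 and 11.06, Stmn3 10.80 and 11.68, Elavl3 9.67 and 9.86, and Celf3 8.39 and 8.46. On the other 5 distal maxilla arrays these genes read 7.72 to 8.38, 6.34 to 6.88, 6.71 to 6.81, 6.74 to 7.13 and 7.03 to 7.49. The filament genes Nefl (10.17 and 10.56) and Nefm (9.06 and 9.48) lay below all other maxilla arrays of the same end. Pou4f1 read 4.99 and 5.10, Tlx3 5.83 and 5.84, Avil 6.04 and 6.08 and Scn9a 6.82 and 7.33, so that the proximal value of each lay below the control proximal maxilla. The distal values of Pou4f1, Tlx3 and Avil lay within the range of the other 5 distal maxilla arrays. The distal Scn9a value lay far above its range there (3.94 to 4.29). Sncg read 7.77 on the proximal array, against 8.81 to 10.93 on the other proximal maxilla arrays. In the distal maxilla the array lay above all 5 others for 19 of the 30 members and below them for 3, and in the proximal maxilla above for 7 and below for 9. The matching shares of all genes were not counted.

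Some genes of other lists were high on these 2 arrays, and those named were chosen after their values were seen. The share of all genes above the other 22 arrays was not counted. Of 10 olfactory and vomeronasal genes 4 lay above the other 22 arrays at both ends, 1 at 1 end and 5 at neither. Fezf1, a zinc finger gene of the olfactory epithelium and forebrain, read 10.26 and 10.83 on these 2 arrays and 5.13 to 5.57 on the other 22. Lhx2, a homeobox gene of olfactory neurons, read 10.54 and 11.20 against at most 8.69, the G-protein gene Gng8 9.97 and 10.56 against at most 8.77, and the olfactory channel gene Cnga2 6.67 and 6.72 against at most 5.30. The mean of the list was 7.62 and 7.81 there and 6.17 to 6.54 on the other arrays. Omp, the defining gene of mature olfactory neurons, read 6.78 and 6.76 within its range elsewhere (6.47 to 7.17), and Trpc2, Gng13, Stoml3 and Ncam2 lay within theirs as well. Of 12 brain genes 3 lay above the other 22 arrays at both ends, Fezf2 (7.38 and 5.12 against at most 4.97), Olig1 and Olig2 (6.91 and 8.82 against at most 5.97), and 1 at 1 end. The other 8, Emx1 (7.25 and 7.43) and Tbr1 (3.79 and 3.80) among them, lay within range. The part of olfactory or brain tissue in the members' values on these arrays was not tested.

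Some genes of neuronal precursors were high as well and others were not. Neurod1, a transcription factor of differentiating neurons, read 10.16 and 11.47 against at most 8.44, Insm1 9.50 and 10.38 against at most 6.50, and Nhlh1 7.45 and 7.45 against at most 5.79. Neurog1 (6.36 and 6.32) and Neurod4 (3.98 and 4.08) lay within the range of the other arrays. Of 11 transcription factors of sensory neurons 3 lay above the other 22 arrays at both ends, 1 above at 1 end, 1 below and 6 within. For the 27 further pan-neuronal genes, Nhlh1 among them, these counts were 3, 6, 3 and 15. Olig1, a gene of glial and olfactory precursors, read 8.66 and 10.34 against at most 6.18, and the simple-epithelium keratin Krt8 11.68 and 11.28 against at most 9.21. The epithelial list of 8 genes went both ways, with 3 above the other 22 arrays at both ends, 2 below at 1 or both ends and 3 within. The distal array also had cartilage, with Col2a1 at 13.10 and Matn1 at 11.41, where the other distal maxilla arrays read 8.93 to 9.73 and 5.13 to 6.30.

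**Figure D5:**
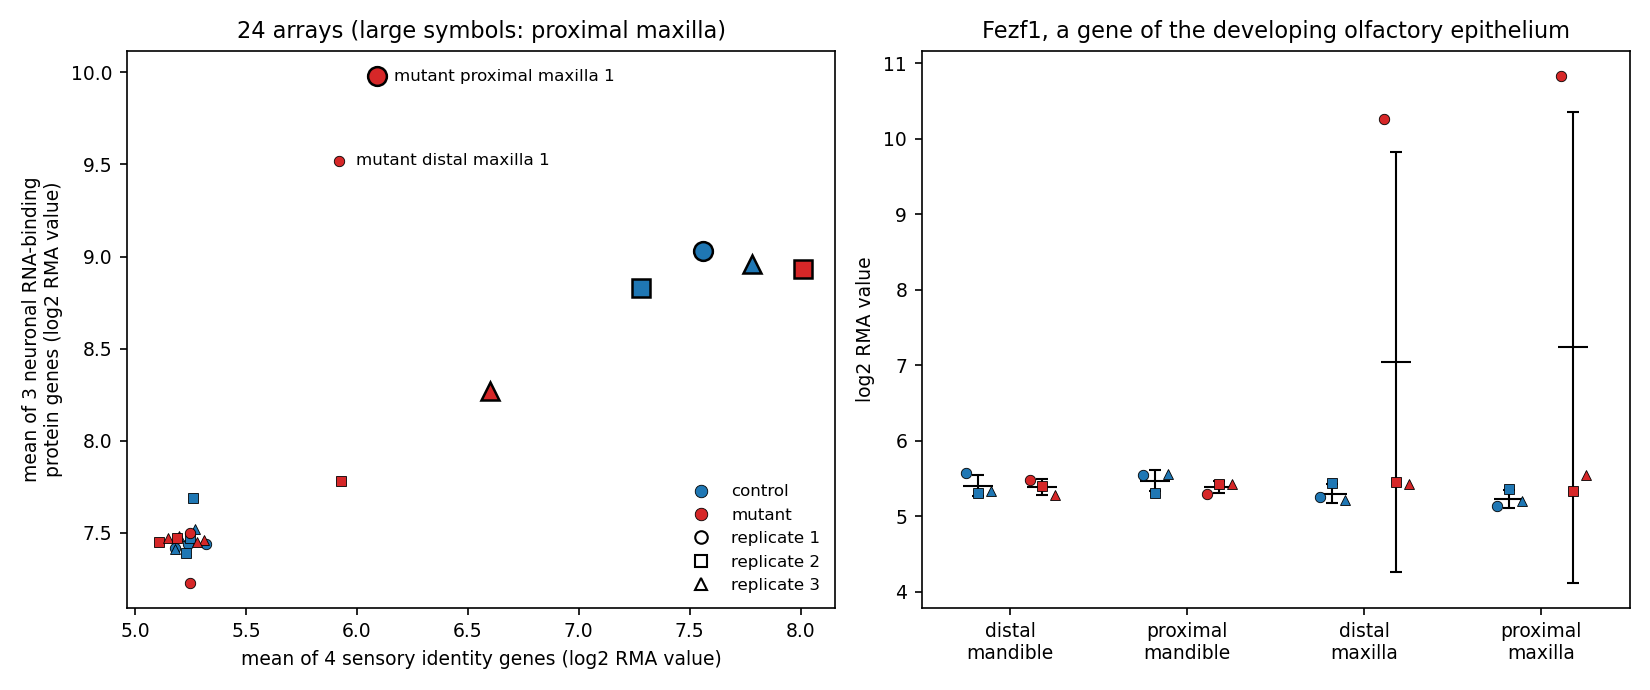
Left, mean of the neuronal RNA-binding protein genes Elavl3, Elavl4 and Celf3 (y axis) against the mean of the identity genes Pou4f1, Tlx3, Avil and Scn9a (x axis), both log2 RMA values, for the 24 arrays, with large symbols for proximal maxilla. Right, Fezf1 by region with group mean and SD (n = 3), blue control and red mutant. The maxilla arrays of mutant replicate 1 have the highest RNA-binding means (9.52 and 9.98) with identity means of 5.92 and 6.09, below the 7.28 to 7.78 of control proximal maxilla. The distal identity mean of 5.92 lies above the 5.18 to 5.32 of control distal maxilla.

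No member was called between genotypes in any of the 4 regions. The count from limma was 0 in distal mandible (0.895% of all genes called, 1 member at an unadjusted p under 0.05), 0 in proximal mandible (5.36%, 2 members), 0 in distal maxilla (7.08%, 3 members) and 0 in proximal maxilla (5.70%, 4 members), and 0 of 30 in each without the filter. Leaving out mutant set 2 gave 1, 1, 4 and 9 called members in the 4 regions, and leaving out mutant set 1 or 3 at most 1. Without the 2 apart arrays 2 were called in proximal mandible and 1 in distal maxilla. The fit shares 1 spread per gene over all 8 groups. The wide spread in mutant maxilla (median SD of members 0.699 distally and 0.897 proximally) therefore enters the SE of every region. No fit to only the 2 groups compared was made for genotype, so counts of 0 do not show that the genotypes were alike. With the mean over the 30 members, control and mutant groups stood at 7.57 and 7.64 in distal mandible, 7.77 and 7.86 in proximal mandible, 7.62 and 7.99 in distal maxilla, and 9.52 and 9.19 in proximal maxilla. The mutant distal maxilla holds the apart array at 8.77, and its other arrays read 7.55 and 7.64. The end effects of mutants and controls differed for 0 members in either jaw, where 0.00% of all genes were called, with 0 members at an unadjusted p under 0.05 in mandible and 2 in maxilla, and 1 called in maxilla without mutant set 2. The difference of genotype effects between the jaws was likewise called for 0 members and 0.00% of genes, with 3 at an unadjusted p under 0.05.

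Averaged over the 4 regions 2 of 29 members were called, Sncg higher and Syp lower, where 33.7% of all genes were called. Sncg read 5.80, 5.66 and 5.93 in control and 7.27, 7.14 and 7.25 in mutant distal mandible, 6.51, 5.71 and 6.65 against 7.77, 8.03 and 7.77 in proximal mandible, and 6.25, 6.25 and 5.90 against 7.40, 7.31 and 7.52 in distal maxilla. In these 3 regions the mutant arrays all lay above the controls, by 1.43, 1.57 and 1.27 on average (SE 0.469 each, adjusted p from 0.0585 to 0.148). In proximal maxilla the order was the other way and arrays overlapped, with 10.49, 10.12 and 10.74 in control and 7.77, 10.93 and 8.81 in mutant arrays (-1.28 ± 0.469, adjusted p = 0.115). The mean over regions was 0.75 ± 0.234 higher in mutants (adjusted p = 0.0195).

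Syp was lower in mutants by 0.23 on average (-0.23 ± 0.0749, adjusted p = 0.0230), with arrays that did not overlap in both mandible ends and did in the maxilla. Neither call held when the set was treated as a random block (adjusted p = 0.246 for Sncg and 0.219 for Syp) or when each set gave 1 value (0.111 and 0.212), nor when any 1 control set was left out, and without mutant set 1, 2 or 3 the count was 4, 5 or 3. Without the 2 apart arrays Sncg was 0.92 ± 0.188 higher (adjusted p = 0.00142), and Uchl1 (-0.44) and Dcx (-0.54) were lower in mutants, while the adjusted p of Syp was 0.0501. Among companion lists the average differences of S100b (0.94 ± 0.249), Ntrk3 (0.63 ± 0.141), Gfra2 (0.60 ± 0.135) and Calcb (0.57 ± 0.130) were the largest called. The Gapdh difference given above and the sex-linked transcripts also differed between sets, and their part was not tested.

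Over the 24 arrays the tested genes outside the list whose values followed the mean of the 30 members most closely were Scg3 (Pearson r = 0.986), Ttll7 (0.974), Mllt11 (0.972), Rims3 (0.963), Ttc9b (0.961), Slc17a6 (0.960), Scg5 (0.955), Pirt (0.954), Klc1 (0.952) and Soga3 (0.938). Scg3 encodes a protein of neuronal secretory granules, Slc17a6 a vesicular glutamate transporter and Pirt a membrane protein of sensory neurons. These correlations describe arrays that fall into a high group of proximal maxilla and a low group of all other regions, that share sets and regions, and they carry no test. Slc17a6 averaged 8.07 in control proximal maxilla and 4.46 to 5.31 in the other control regions, and Pirt 8.93 and 5.70 to 5.92.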

How the data were processed

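RNA from 24 samples of embryonic mouse jaw was hybridised to expression arrays with 45101 probe sets. The deposited values are log2 expression values, made by the authors with RMA (version not given), per the submitters' processing notes. Background correction and quantile normalization in RMA compress low values, so fold changes of dim probe sets are likely understated. Gene names came from the platform annotation: 34958 probe sets name 1 gene, 932 several and 9211 none.

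Each gene was read from its probe set with the highest mean, and kept if above the 40th percentile of the array on at least 3 arrays. A limma 3.58.1 fit (R 4.3.3, statmod 1.5.0 for blocks) used 8 group means over 24 arrays (16 residual degrees of freedom), moderated variances and Benjamini-Hochberg adjustment over 13850 genes. On simulated data for the ends of control maxilla, with 200 changed genes among 13850, it recovered 89% of log2 changes of size 1 and 99% of size 2, with 9 false calls. In the data themselves Stmn2 (-1.54) and Elavl3 (-1.44) were not called in that contrast, so these rates do not carry over to members with a wide spread. The number of array pairs with identical values was 0.

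Named were all 30 members, for each comparison the called members with the largest differences and the identity genes by array, up to 4 companion genes with the largest called differences, and the 10 genes most like the members' mean. More companion genes than this were named for the ends of control maxilla and control mandible and for the apart arrays. They were chosen after their values were seen. The members and lists were chosen with earlier results of these data known. Arrays of 1 genotype with the same replicate number deviated together in every comparison of ends (r from 0.22 to 0.69 over genes) and in comparisons of jaws except in control proximal arrays (r of 0.26, 0 and 0.34), so the number was taken as pairing there, from the data and not from the labels. It did not pair the genotypes. The main fit did not use this pairing, so its SEs and adjusted p values are unpaired. Pairing entered comparisons of ends and jaws only in the alternative with the set as a fixed block. Alternatives were other probe set rules, no filter, an intensity trend, the set as a fixed or random block, fits to fewer arrays and leaving out each set. Array number, 3 per group, limits the precision.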

Additional observations from a re-analysis of the deposited data

Results flagged for a closer look

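The results here stand out because the distal minus proximal difference of a member differed between the jaws by the interaction test in limma (adjusted p under 0.05). All values are the mandible's difference minus the maxilla's on the log2 scale, and all are positive. In controls the interaction was 3.07 for Pou4f1, 1.80 for Avil and 3.57 for Scn9a among the identity genes, and 3.75 for the filament gene Prph. Among genes of microtubules and axon growth it was 2.83 for Tubb3, 3.14 for Stmn2, 3.97 for Stmn3, 1.79 for Mapt and 1.30 for L1cam. Among genes of the synapse it was 3.47 for Snap25, 0.95 for Syt1 and 3.82 for Sncg.

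Averaged over the genotypes the interaction was 2.33 for Pou4f1, 1.32 for Avil, 2.83 for Scn9a and 2.74 for Prph. It was 2.44 for Tubb3, 2.67 for Stmn2, 2.95 for Stmn3, 1.30 for Stmn4, 1.56 for Mapt and 1.06 for L1cam. Snap25 gave 2.72, Syt1 0.93, Sncg 2.47, Elavl4 2.00, Rtn1 1.50 and Uchl1 0.99. For Tubb3, Stmn2, Snap25, L1cam and Syt1 the interaction holds differences of opposite sign in the control jaws, since these read higher distally in mandible and lower distally in maxilla. Groups of 3 arrays are too small for an outlier test.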

How the results depend on the processing

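Of 141 called values of single members, 1526 of 1819 values under other settings kept direction and call, 293 lost the call and 0 reversed. Several settings change only the SE and the adjusted p and leave the difference itself as it was. Among them are fits to control arrays alone or to only the groups compared, and the set as a random block. A reversal was not possible there, so the count of 0 says little about how stable the directions are. Counts below are members called of 29, in the order of the settings. The share of all genes called under each setting is not given beside them, so a count does not set the members apart from other genes.

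Fitting only the groups compared gave, for the ends, 11 in control mandible, 7 in mutant mandible and 0 in mutant maxilla, and for the jaws 4 in control distal, 26 in control proximal and 3 in mutant proximal arrays. Only control arrays (chosen after seeing the data, as was the next setting) gave 12 for the ends of control mandible, 7 and 27 for the jaws in distal and proximal arrays, and 25 for the interaction. Without the maxilla arrays of mutant set 1 the counts were 6, 6 and 21 for the ends of control mandible, mutant mandible and mutant maxilla, 4 for the jaws in control distal arrays, 2 and 1 for genotype in proximal mandible and distal maxilla, and 20 and 14 for the interaction in controls and mutants. The mean of all probe sets gave 1 for the jaws in control distal arrays, as did no filter, and 1 for average genotype, and an intensity trend gave 1 for genotype in proximal mandible. With the set as a fixed replicate block, where the pairing held, counts were 4, 4 and 15 for the ends of control mandible, mutant mandible and mutant maxilla, and 1 for the jaws in mutant distal arrays. The block moved no other count by over 1.5 times. With the set as a random replicate block the average genotype count was 0, and with 1 value per set it was 0. The cause of these moves was not tested.

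The distal minus proximal difference of the members' mean was -1.67 in control maxilla with all probe sets averaged, against -1.89. With members scaled to an SD of 1 it was -0.15 and -1.89 in control and -0.11 and -1.21 in mutant mandible and maxilla, in SD units.

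Leaving out 1 set gave, for the ends, 1 to 5 members in control mandible, 8 to 24 in control maxilla, 1 to 3 in mutant mandible, 1 to 21 in mutant maxilla and 17 to 22 on average. For the jaws it gave 0 to 4 in control distal, 2 to 22 in control proximal, 0 to 1 in mutant distal, 10 to 17 in mutant proximal arrays and 17 to 24 on average. For genotype it gave 0 to 1 in distal and in proximal mandible, 0 to 4 in distal maxilla, 0 to 9 in proximal maxilla and 0 to 5 on average. For the interaction of end and jaw it gave 0 to 18 in controls, 0 to 5 in mutants and 6 to 22 on average. For the difference of end effects between genotypes it gave 0 to 0 in mandible, 0 to 1 in maxilla and 0 to 0 on average, and for genotype between jaws 0 to 0. The members' mean differed by -0.23 to -0.15 in control mandible, -1.96 to -1.83 in control maxilla, -0.32 to -0.02 in mutant mandible and -1.64 to -0.70 in mutant maxilla.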
